A study of Homo sapiens with 9 samples.

Results

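Metallothioneins are small cysteine-rich proteins that bind zinc and copper and buffer cells against excess metal and oxidative stress. In human cells their genes lie side by side in a cluster on chromosome 16, and zinc induces them through MTF1, a metal-sensing transcription factor that binds metal response elements in their promoters. Glucocorticoids and cell stress induce several of them as well. MT2A is the most widely expressed isoform, and the MT1 genes are close copies that code for similar proteins. Here 8 metallothionein genes (MT1A, MT1E, MT1F, MT1G, MT1H, MT1M, MT1X and MT2A) were followed, and all 10 probes named for them among 58201 non-control probes were examined. Of these 8 genes, 5 passed the filter on dim probes and were among the 20107 genes tested.

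T47D is an established human breast cancer line of the luminal type, and 3 stable lines derived from it were profiled on single-color microarrays, 3 arrays per line and 9 in all. T47D-PA6 cells carried a vector with full-length PTH-AS, a long noncoding RNA from downstream of the parathyroid hormone gene. T47D-PA5 cells carried a fragment that lacks part of the 5′ side of PTH-AS, and T47D-VC1 cells carried the empty vector, so all 3 lines had been transfected and selected with G418. For each construct the study worked with a single line chosen for high expression, so differences between constructs and differences between selected lines cannot be told apart. The comparison with T47D-PA5 was included to separate effects of full-length PTH-AS from those of introducing foreign DNA. There were 0 probes named PTH-AS, and its level was not measured here.

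The arrays lay on 3 slides. Replicate 1 of every line was on slide 1, which was scanned in an earlier run. T47D-VC1 and T47D-PA5 replicate 2 were on slide 2, and the remaining 4 arrays were on slide 3. Replicates 2 and 3 of a line were close to each other, with a median absolute difference over the tested genes of 0.0853 to 0.108 on the log2 scale, whereas replicate 1 differed from them by 0.210 to 0.268. Fewer than 1 probe in 2 rose well above background on any array. All 9 luminal markers of T47D cells passed the filter, among them ESR1, GATA3 and KRT18, and 1 of them, the progesterone receptor gene PGR, was lower in T47D-PA6 than in both other lines. Of 5 markers of other cell types on the array, the leukocyte gene PTPRC and the fibroblast gene COL1A1 stood well above background on each of the 9 arrays and the mesenchymal gene VIM on 6, while the T cell gene CD3E and the endothelial gene PECAM1 did so on 0. The summed signal of these 5 markers was 362 to 399 in T47D-VC1, 347 to 381 in T47D-PA5 and 305 to 385 in T47D-PA6. Among them VIM was higher in T47D-PA6 and T47D-PA5 than in T47D-VC1, and COL1A1 was lower in T47D-PA6 than in T47D-VC1. The part of these differences in the results below was not tested.

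The 10 member probes lie between positions 56643332 and 56718021 of chromosome 16 in hg19, a stretch of 74.69 kb. MT2A is at one end (56643332 to 56643391), MT1X is at the other (56717962 to 56718021), and MT1E (56660853 to 56660912), MT1A (56673205 to 56673808) and MT1F (56693077 to 56693136) lie between them, all on the forward strand. The MT1A probe is coding sequence and covers 604 bases of the genome, because it crosses an intron. It is shown whole, since it displays the repeated cysteine codons that define the family. Capitals mark the 8 cysteine codons among its 20 codons.

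MT1A probe: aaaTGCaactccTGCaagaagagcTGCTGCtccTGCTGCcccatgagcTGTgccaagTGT

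Genes of this family differ by few bases over long stretches, and a signal may include RNA of a near-identical relative. The share of such cross-hybridization was not tested. The first 30 bases of the MT1F, MT1X and MT1H probes line up without gaps, and they are shown because MT1F and MT1X were detected in every line and MT1H in none. Capitals mark bases that differ from MT1F, of which there are 5 in MT1X and 8 in MT1H.

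MT1F probe, bases 1 to 30: tgccaggacaacctttctcccagatgtaaa
MT1X probe, bases 1 to 30: tgccaggacaGcTGtGctcTcagatgtaaa
MT1H probe, bases 1 to 30: tgTcGggacaGccCtGctGTcagatgAaaa

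The MT1E probe used for the tests resembles probes for MT1B and MT1L, a pair of cluster genes outside the 8. A stretch of 30 bases is shown for the 3 genes because all of them were called higher in T47D-PA6. Capitals mark bases that differ from MT1E, 5 in MT1B and 4 in MT1L.

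MT1E probe, bases 19 to 48: ctgctgtgcctgatgtgggaacagctcttc
MT1B probe, bases 18 to 47: ctgctgtgcctgatgtTggGaGagcCctGc
MT1L probe, bases 1 to 30: ctgctgtgcctgatgtgggGacagACctGc

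The longest run of identical bases with a probe of another metallothionein gene was 19 of 60 for MT1E (with MT1L), 19 for MT1F (with MT1L), 15 for MT1X (with MT1F), 10 for MT2A (with MT1DP) and 7 for MT1M (with MT1E). The MT1A probe shared a run of 27 bases with the probe for MT1HL1, a related gene on chromosome 1. Lined up without gaps, the probes matched at more bases than these runs. MT1E matched MT1B (A_23_P37983) at 49 of 59 aligned bases, MT1F matched MT1X at 49 of 60, and MT1A matched MT1HL1 at 42 of 46. Probes were compared only with other probes and not with whole transcripts, so a short run does not show that a probe is specific.

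RefSeq promoter sequences (GRCh38.p14) were found for 3 of the 8 genes, MT2A, MT1H and MT1X. The 250 bases before the gene start are printed with the core of the metal response element (TGCACNC or TGCGCNC, either strand) in capitals, because this is the element through which zinc acts on the family.

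MT2A, chr16:56608334-56608583, forward strand: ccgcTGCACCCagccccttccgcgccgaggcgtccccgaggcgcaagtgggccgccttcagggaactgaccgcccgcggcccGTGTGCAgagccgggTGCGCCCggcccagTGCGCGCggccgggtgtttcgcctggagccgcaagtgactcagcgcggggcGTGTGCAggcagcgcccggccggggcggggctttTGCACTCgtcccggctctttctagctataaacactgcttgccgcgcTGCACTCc
MT1X, chr16:56682220-56682469, forward strand: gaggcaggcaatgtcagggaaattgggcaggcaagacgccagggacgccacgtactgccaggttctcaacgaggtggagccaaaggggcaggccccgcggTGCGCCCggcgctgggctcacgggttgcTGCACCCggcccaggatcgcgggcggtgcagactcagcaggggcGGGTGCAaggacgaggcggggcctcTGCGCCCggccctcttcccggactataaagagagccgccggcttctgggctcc
MT1H, chr16:56669564-56669813, forward strand: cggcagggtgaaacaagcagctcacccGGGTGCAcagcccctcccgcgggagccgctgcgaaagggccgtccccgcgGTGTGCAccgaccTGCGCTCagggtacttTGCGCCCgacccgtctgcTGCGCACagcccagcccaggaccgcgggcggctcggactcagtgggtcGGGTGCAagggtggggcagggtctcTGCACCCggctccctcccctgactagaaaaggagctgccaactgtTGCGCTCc

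These stretches held 7 matches in MT2A, 4 in MT1X and 8 in MT1H, with 0 overlapping another. Over the table's full window of 300 bases, which adds 50 bases after the start, the counts were 8, 4 and 8. At least 1 match was present in 29.6% of 35116 promoters of that length, and 4 or more in 0.601%. MT1H, which was not detected, had as many matches as MT2A. The core of the interferon-stimulated response element (GAAANNGAA, either strand) had 0 matches in these 3 promoters and was present in 8.11% of all promoters. With so low a share, 0 matches in 3 promoters is the likely outcome for any genes and decides nothing. No promoter sequence was found for MT1E, MT1A or MT1F, and an interferon response was not tested.

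MT2A gave a normalized signal of 13682, 30129 and 26036 in T47D-VC1 replicates 1, 2 and 3. In T47D-PA5 it was 26035, 21999 and 22926, and in T47D-PA6 it was 35312, 87630 and 87630. All 3 T47D-PA6 arrays were above all arrays of the other lines, and T47D-VC1 replicate 1 was the lowest of the 9. How many of all tested genes separate in this way was not counted, so such statements here and below are descriptions only. The last 2 values are equal because quantile normalization gives probes of the same rank the same value.

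MT1A and MT1E code for metal-binding isoforms of the MT1 group. The MT1A signal was 4644, 9555 and 8518 in T47D-VC1, 7585, 7195 and 6768 in T47D-PA5, and 9055, 22391 and 24343 in T47D-PA6. The T47D-PA6 arrays were above all T47D-PA5 arrays, while T47D-PA6 replicate 1 lay below T47D-VC1 replicate 2. The MT1E signal was 679, 1682 and 1405 in T47D-VC1, 1494, 1307 and 1329 in T47D-PA5, and 2171, 6100 and 6655 in T47D-PA6. For MT1E the T47D-PA6 arrays did not overlap those of either other line.

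MT1F, another metal-inducible isoform, had a signal of 165, 373 and 307 in T47D-VC1, 249, 322 and 296 in T47D-PA5, and 348, 488 and 536 in T47D-PA6. Its T47D-PA6 arrays were above all T47D-PA5 arrays and overlapped T47D-VC1. MT1X, an isoform at the far end of the cluster, had a signal of 125, 171 and 139 in T47D-VC1, 271, 132 and 134 in T47D-PA5, and 202, 471 and 478 in T47D-PA6. Its T47D-PA6 arrays were above all T47D-VC1 arrays, but T47D-PA5 replicate 1 exceeded T47D-PA6 replicate 1.

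MT1M did not pass the filter, because it was well above background on only 2 arrays, T47D-PA6 replicates 2 and 3. Its signal was 4.29, 4.99 and 3.01 in T47D-VC1, 3.04, 7.08 and 3.05 in T47D-PA5, and 12.3, 98.5 and 96.3 in T47D-PA6. Against the lowest signal that counted as well above background, T47D-PA6 was at least 3.91-fold higher than T47D-VC1 and at least 3.76-fold higher than T47D-PA5. This bound sets the mean of the 3 T47D-PA6 arrays against the detection limit of the dimmer line, and only 2 of the 3 measured the gene.

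MT1G and MT1H were not well above background on any of the 9 arrays. MT1G ranged from 3.18 to 8.93 and MT1H from 2.60 to 2.88, so no fold was formed for either. MT1E has 2 further probes. One, A_23_P420942, stayed below that limit on all 9 arrays, with values from 2.55 to 2.61. The other, A_21_P0000671, shares a run of 28 bases with the probe used for the tests and was well above background on T47D-PA6 replicates 2 and 3 and T47D-PA5 replicate 3. Its signal was 5.85, 13.1 and 8.09 in T47D-VC1, 3.10, 6.54 and 14.2 in T47D-PA5, and 18.4, 95.9 and 84.9 in T47D-PA6, which was at least 4.25-fold higher than in T47D-VC1. On this dim probe, too, T47D-PA6 had the highest mean, while T47D-VC1 and T47D-PA5 were at or near background and have no order.

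**Figure D1:**
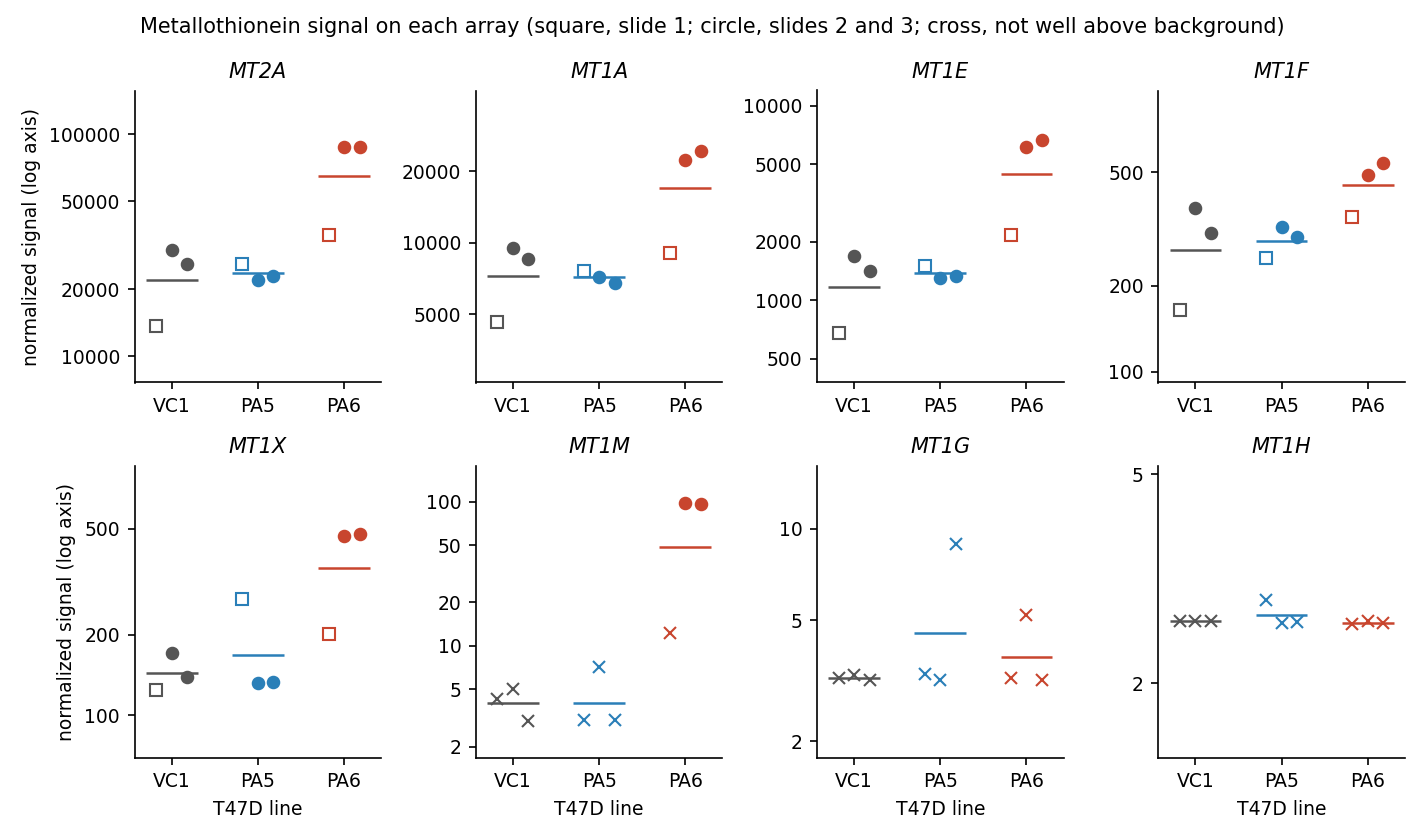
Normalized signal (log axis, a separate scale for each gene) of the 8 metallothionein genes on the 9 arrays, by line, with replicates 1 to 3 from left to right and a bar at the geometric mean of each line. Open squares are slide 1, filled circles are slides 2 and 3, and crosses are values not well above background: in T47D-PA6, replicates 2 and 3 of MT2A stand at 87630 and replicate 1 at 35312, while MT1G and MT1H are crosses throughout.

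In T47D-PA6 cells, all 5 tested metallothionein genes had a higher mean than in T47D-VC1 cells, and 2 of them passed the test. The fit was made with limma on all 9 arrays, and each p-value was adjusted over 20107 genes (Benjamini-Hochberg). MT1E was 3.80-fold higher (log2 fold change 1.93, SE 0.46, adjusted p = 0.0352). MT2A was 2.93-fold higher (log2 fold change 1.55, SE 0.40, adjusted p = 0.0437). Across all genes 4.69% were called higher and 5.34% lower in this comparison.

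The other 3 genes missed the threshold. MT1X differed by 2.48-fold (95% interval 1.34 to 4.58, adjusted p = 0.0686), MT1A by 2.35-fold (1.26 to 4.39, adjusted p = 0.0848) and MT1F by 1.69-fold (1.06 to 2.70, adjusted p = 0.147). The median log2 fold change was 1.31 over the 5 genes and -0.03 over all tested genes. By the study's fold definition of more than 2, without a test, 4 of the 5 genes were above it (MT1A, MT1E, MT1X and MT2A), as were 3.47% of all genes.

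The 2 calls did not survive the loss of most single arrays. With any one of T47D-VC1 replicates 1, 2 and 3, T47D-PA5 replicates 2 and 3 or T47D-PA6 replicates 2 and 3 left out, 0 of 5 were called. Of the 5, 3 to 5 were then at an unadjusted p under 0.05, as were 20.2% to 29.4% of all genes. Without T47D-PA5 replicate 1, 1 was called (MT1X), where 1038 of 20488 genes were called higher. Without T47D-PA6 replicate 1, 4 of the 5 were called (all but MT1F), where 1346 of 20783 genes were called higher. With all of slide 1 left out, 5 of the 5 were called higher, where 16.7% of all genes were. MT1M was called as well in both settings, but it passed the filter there only through the T47D-PA6 arrays on which it was high, so its call is not counted. Without slide 1, MT1E was at a log2 fold change of 2.05 (adjusted p = 0.000668, limma) and MT2A at 1.65 (adjusted p = 0.000696, limma). These fold changes were close to those with slide 1. The smaller adjusted p-values rest on replicates 2 and 3 of each line alone, which lay close together. In that setting 46.7% of all genes had an unadjusted p under 0.05.

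T47D-PA6 was also above T47D-PA5 for all 5 genes, but 0 passed the test. Of the 5, 4 had an unadjusted p under 0.05 in limma, as did 24.9% of all genes, and the methods' t-test with Benjamini-Hochberg adjustment also called 0. MT1E was 3.24-fold higher in T47D-PA6 (95% interval 1.57 to 6.69, adjusted p = 0.0541) and MT2A 2.74-fold higher (1.47 to 5.13, adjusted p = 0.0548). MT1A differed by 2.37-fold (adjusted p = 0.0876), MT1X by 2.12-fold (adjusted p = 0.123) and MT1F by 1.56-fold (adjusted p = 0.221). The median log2 fold change was 1.25 over the 5 genes and -0.0009 over all genes, of which 3.65% were called higher and 6.06% lower. This comparison shares the T47D-PA6 arrays with the previous one.

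Here too the count rested on single arrays. Without T47D-VC1 replicate 1, MT1E and MT2A were called, where 983 of 20329 genes were called higher. Without T47D-PA6 replicate 1, 4 of the 5 were called (all but MT1F), where 1356 of 20783 genes were. Slide as a block also gave 2 calls, MT1E and MT2A, where 748 of 20107 genes were called higher. The replicate block, given at the end, also called more members than the main fit. With slide 1 left out, 5 of the 5 were called higher, where 16.3% of all genes were. MT1M is again not counted. MT1E was then at a log2 fold change of 2.27 and MT2A at 1.96, both above the values with slide 1, and MT1X was at 1.84 instead of 1.08.

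Between T47D-PA5 and T47D-VC1 the arrays of the 2 lines overlapped for every tested metallothionein gene. The share of all genes with such an overlap was not counted. Of the 5 genes, 0 were called, with 0 at an unadjusted p under 0.05 and 0 by the methods' t-test. Log2 fold changes were 0.23 for MT1E (95% interval -0.82 to 1.28), 0.23 for MT1X (-0.66 to 1.11), 0.11 for MT1F (-0.57 to 0.79), 0.10 for MT2A (-0.81 to 1.0) and -0.01 for MT1A (-0.91 to 0.89). These intervals are wide, and the missed threshold does not show that the lines were alike. With slide 1 left out 0 were called as well, with 2 at an unadjusted p under 0.05 (37.3% of all genes), and all 5 values lay below 0, the lowest being -0.37 for MT1A (adjusted p = 0.0501, limma). The median log2 fold change was 0.11 over the 5 genes and -0.03 over all genes, of which 1.37% were called higher and 0.298% lower.

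**Figure D2:**
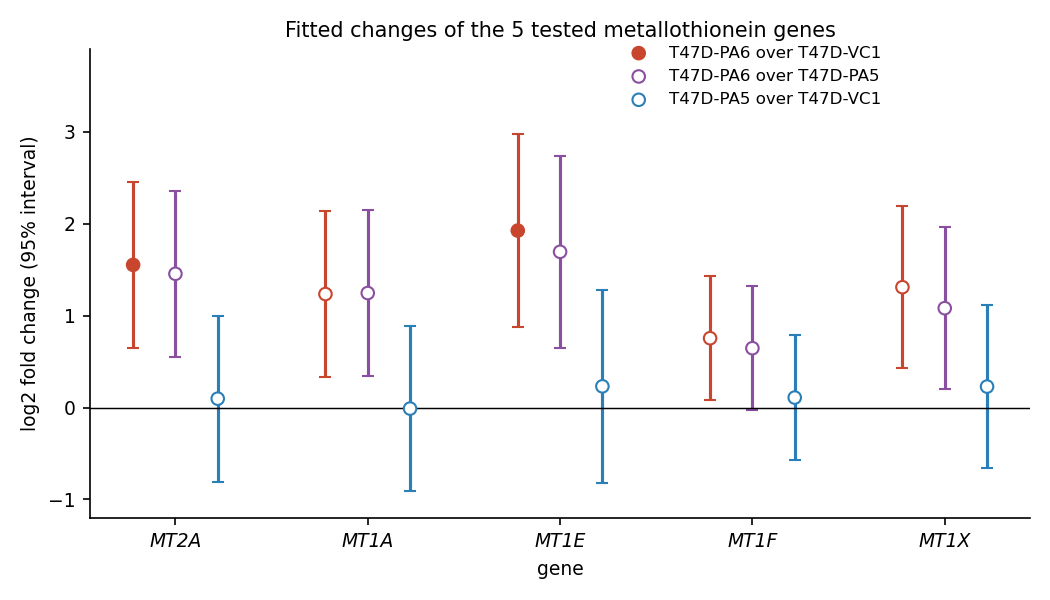
Log2 fold change with its 95% interval for the 5 tested metallothionein genes in the 3 comparisons between lines, with filled points for an adjusted p under 0.05. The filled points are MT2A (1.55) and MT1E (1.93) in T47D-PA6 over T47D-VC1, and the 5 values of the PA5 comparison with T47D-VC1 lie between -0.01 and 0.23.

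Replicate 1 lay below the mean of the later replicates in T47D-VC1 and T47D-PA6, but in T47D-PA5 it lay above that mean for most of the genes. In T47D-VC1 the mean of replicates 2 and 3 was 1.24-fold to 2.26-fold above replicate 1 for the 5 genes, and in T47D-PA6 it was 1.47-fold to 2.93-fold above. In T47D-PA5 the same ratio was 0.489 to 1.24. Over all tested genes the median of this difference on the log2 scale was -0.002 for T47D-VC1, -0.01 for T47D-PA5 and 0.04 for T47D-PA6. Whether slide, scan run, culture or RNA preparation goes with this difference cannot be told apart, because replicate 1 of every line lies on slide 1.

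Lines were therefore also compared within a slide. T47D-PA6 over T47D-VC1 gave ratios of 1.62 to 3.20 for the 5 genes on slide 1 and of 1.67 to 4.53 on slide 3, so T47D-PA6 was higher on both. T47D-PA6 over T47D-PA5 gave 0.744 to 1.45 on slide 1, with MT1X below 1, and 1.73 to 4.79 on slide 3. T47D-PA5 over T47D-VC1 gave 1.51 to 2.20 on slide 1, 0.730 to 0.862 on slide 2 and 0.795 to 0.965 on slide 3, so its direction on slide 1 was opposite to that on the other slides for all 5 genes. Each slide holds 1 or 2 arrays of a line, and these ratios have no test.

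**Figure D3:**
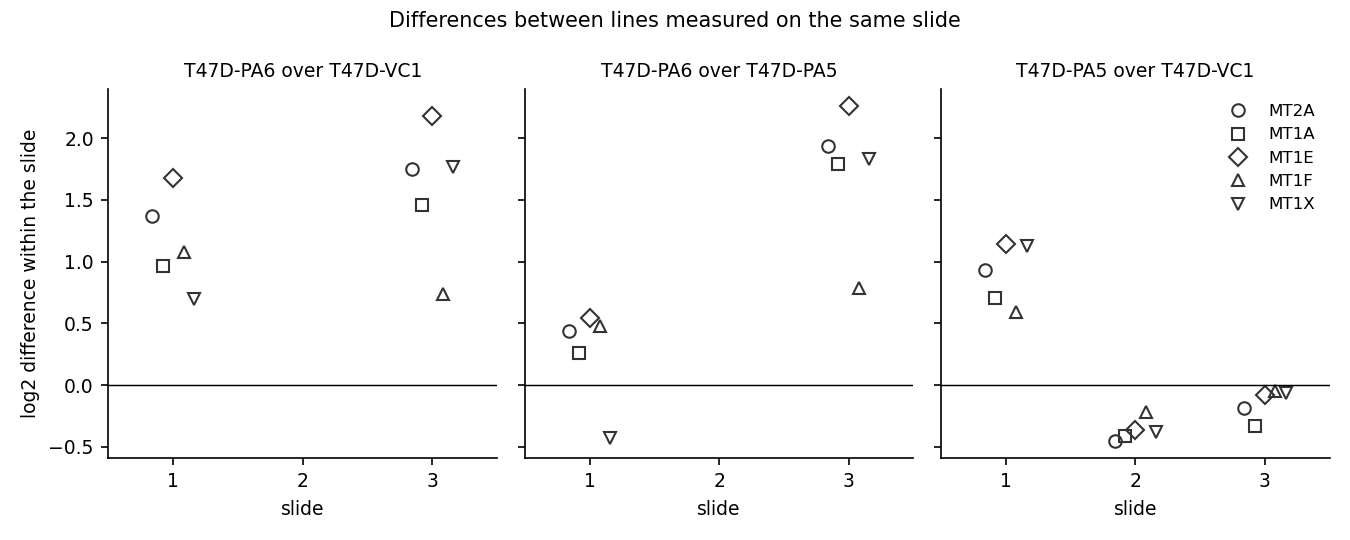
Log2 difference between lines on the same slide for the 5 tested metallothionein genes (1 symbol per gene), with 1 panel for each comparison and the slide on the horizontal axis. T47D-PA6 over T47D-VC1 is above 0 on slides 1 and 3, whereas T47D-PA5 over T47D-VC1 is above 0 on slide 1 and below 0 on slides 2 and 3.

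The 5 tested genes varied together over the arrays. Pearson's r over the 9 arrays was between 0.71 (MT1F with MT1X) and 0.998 (MT2A with MT1E) for the 10 pairs. These arrays share the lines and slides described above, so the coefficients are descriptions without a test. Among tested genes outside the 8, those most like the mean of the family over the 9 arrays were MT1B (r = 0.997), WNT6, a secreted signaling ligand (0.994), MT1HL1 (0.990), SNRPD2, a core splicing protein (0.987), and PREX1, a Rac exchange factor (0.987). Only MT1B among these was called in T47D-PA6 over T47D-VC1, and SNRPD2 followed the pattern with a change of just 1.16-fold (adjusted p = 0.214).

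Other metallothionein genes and pseudogenes of the same list had 7 of 9 members on the array, and 4 were tested. MT1B and MT1L were called higher in T47D-PA6 over both other lines. The MT1B signal was 1525, 3688 and 3256 in T47D-VC1, 3274, 2914 and 2963 in T47D-PA5, and 4975, 13030 and 14371 in T47D-PA6. Its fold was 3.71 over T47D-VC1 (adjusted p = 0.0330) and 3.21 over T47D-PA5 (adjusted p = 0.0487). MT1L, annotated as a pseudogene, had a signal of 1644, 3589 and 2876 in T47D-VC1, 3490, 2694 and 2753 in T47D-PA5, and 5745, 12903 and 10090 in T47D-PA6. Its fold was 3.53 over T47D-VC1 (adjusted p = 0.0165) and 3.07 over T47D-PA5 (adjusted p = 0.0249).

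For both genes the T47D-PA6 arrays did not overlap the others. The call of MT1L over T47D-VC1 was lost without T47D-VC1 replicate 3 or T47D-PA6 replicate 2 or 3, and that of MT1B was kept in 2 of the 9 settings that left out an array, those without T47D-PA5 or T47D-PA6 replicate 1. Over T47D-PA5 the calls were kept in 5 (MT1L) and 2 (MT1B) of the 9. Without slide 1 the log2 fold changes over T47D-VC1 were 1.98 for MT1B and 1.83 for MT1L. The probes of MT1B and MT1L share runs of 17 and 19 bases with that of MT1E. MT1HL1 was 3.31-fold higher over T47D-VC1 and missed the threshold (adjusted p = 0.0786). MT3, the brain isoform, which is not induced by metal in the way of the others, had a ratio of 1.06 over T47D-VC1 (95% interval of the log2 fold change -0.46 to 0.64, adjusted p = 0.854), with values from 1030 to 1965 over all arrays. MT1DP, MT1IP and MT4 did not pass the filter.

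Zinc transporters and MTF1 were read as the other genes of the zinc pathway, and 21 of 25 were tested. In T47D-PA6 over T47D-VC1, 2 were higher and 0 lower, with a list median of -0.07, where 4.69% of all genes were higher and 5.34% lower. MTF1 itself had a signal of 412, 402 and 423 in T47D-VC1, 397, 454 and 426 in T47D-PA5, and 483, 610 and 593 in T47D-PA6, which was above every array of the other lines. Its fold over T47D-VC1 was 1.36 (adjusted p = 0.0470). Over T47D-PA5 the MTF1 fold was 1.315 and missed the threshold (adjusted p = 0.0680, limma). SLC39A14, an importer of zinc, iron and manganese, was 1.51-fold higher over T47D-VC1 (adjusted p = 0.0439) and 1.57-fold over T47D-PA5 (adjusted p = 0.0324). The MTF1 call was kept in 1 of the 9 settings that left out an array, that without T47D-PA6 replicate 1, and the SLC39A14 call over T47D-VC1 in 2, those without T47D-PA5 or T47D-PA6 replicate 1. The SLC39A14 call over T47D-PA5 was kept in 3. Both genes were called without slide 1, with log2 fold changes over T47D-VC1 of 0.54 for MTF1 and 0.72 for SLC39A14.

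SLC39A1, a zinc importer of the plasma membrane, was lower in T47D-PA6 than in T47D-PA5, with a ratio of 0.472 (adjusted p = 0.00692), and stayed called with each array left out. SLC30A1, the zinc exporter that MTF1 also induces, had a ratio of 1.19 over T47D-VC1 (adjusted p = 0.262). In T47D-PA5 over T47D-VC1, 0 of the 21 genes were called.

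Of 9 copper-handling genes, 0 were called in T47D-PA6 over T47D-VC1, and SLC31A2, a copper transporter, was lower than in T47D-PA5 with a ratio of 0.747 (adjusted p = 0.0273). Without T47D-PA5 or T47D-PA6 replicate 2 or 3 this call was lost. All 14 oxidative and heat stress genes were tested. The thioredoxin gene TXN was lower in T47D-PA6 than in T47D-VC1, with a ratio of 0.761 (adjusted p = 0.0443), and was called in 1 of the 9 settings that left out an array, that without T47D-VC1 replicate 1. The heme oxygenase gene HMOX1, a common marker of metal and oxidative stress, had a ratio of 1.57 and missed the threshold (adjusted p = 0.0504).

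Over T47D-PA5, NQO1, a quinone reductase, was 1.75-fold higher in T47D-PA6 (adjusted p = 0.00682), and SLC7A11, the cystine transporter, was 3.89-fold higher (adjusted p = 0.0325). Over T47D-VC1 neither was called, with ratios of 1.25 for NQO1 (adjusted p = 0.132, limma) and 1.30 for SLC7A11 (adjusted p = 0.437, limma). In T47D-PA5 over T47D-VC1 the ratios were 0.713 for NQO1 and 0.333 for SLC7A11, and neither was called. The NQO1 call held with each array left out. The SLC7A11 call was lost without T47D-VC1 replicate 2 or without replicate 2 or 3 of T47D-PA5 or T47D-PA6.

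Of 10 genes of glucocorticoid and progesterone response, PGR was the one called in T47D-PA6 over T47D-VC1, with a ratio of 0.478 (adjusted p = 0.00725). Its signal was 17130, 14117 and 14167 in T47D-VC1, 9053, 13318 and 12910 in T47D-PA5, and 7942, 6864 and 6850 in T47D-PA6. These arrays did not overlap, and the call held with each array left out. The ratio over T47D-PA5 was 0.621 (adjusted p = 0.0367), a call lost without T47D-VC1, T47D-PA5 or T47D-PA6 replicate 2 or 3. The other 9 genes, including FKBP5 and TSC22D3, which are standard targets of the glucocorticoid receptor, were not called in any of the 3 comparisons. Some of them came near the threshold. TSC22D3 had a ratio of 1.78 in T47D-PA6 over T47D-PA5 (adjusted p = 0.0630, limma). FKBP5 had a ratio of 0.732 there (adjusted p = 0.0731) and of 1.58 in T47D-PA5 over T47D-VC1 (adjusted p = 0.0521). A steroid response was not tested.

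**Figure D4:**
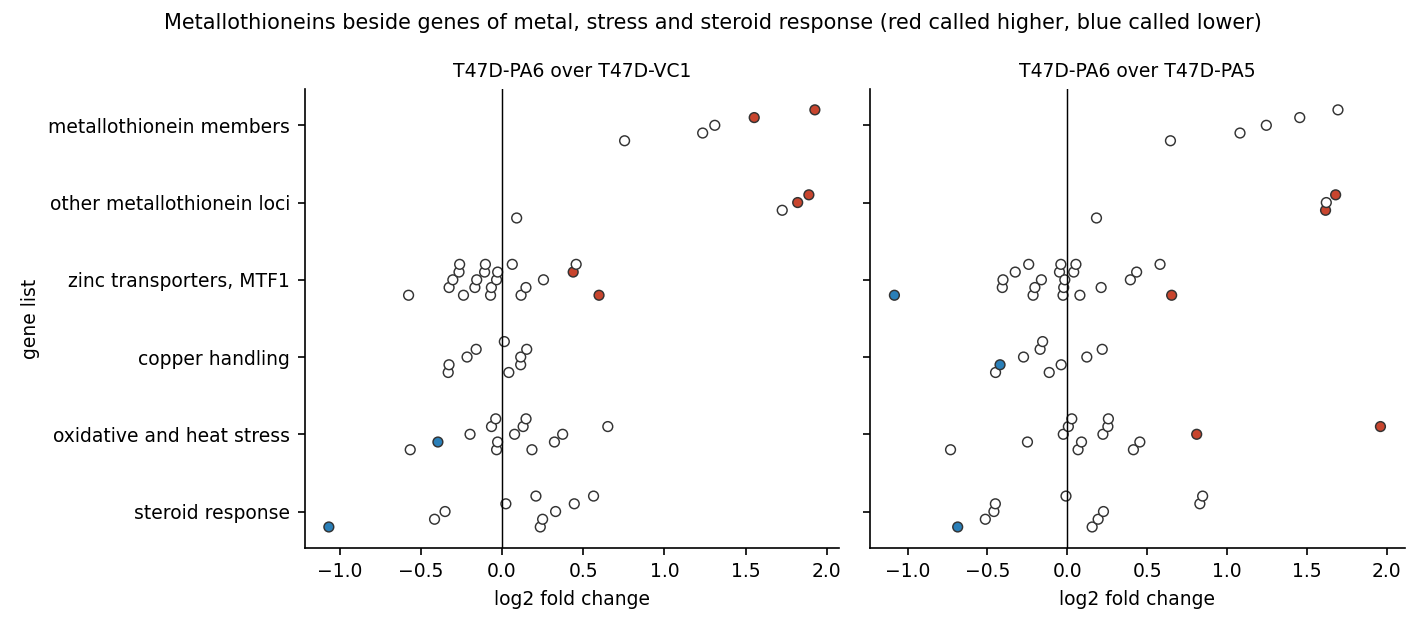
Log2 fold change of each tested gene (1 point per gene) of the metallothionein members and 5 other gene lists, for T47D-PA6 over T47D-VC1 on the left and T47D-PA6 over T47D-PA5 on the right. Red points were called higher and blue points lower: all metallothionein points lie to the right of 0, with medians of 1.31 and 1.25 for the members, and the medians of the zinc, copper, stress and steroid lists lie between -0.15 and 0.22.

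Genes around the cluster were examined to see how far along the chromosome the difference reached. Within 1 Mb of the outermost member probes, 26 other genes were tested. In T47D-PA6 over T47D-VC1, 4 were higher and 0 lower, with a median log2 fold change of 0.11. Of all tested genes, 4.69% were called higher and 5.34% lower. One of the 4, named only by its Ensembl transcript ENST00000567054, lies inside the cluster (56682743 to 56682802) and was 2.99-fold higher (adjusted p = 0.0446). The other 3 lie beyond the MT1X end: HERPUD1, an endoplasmic reticulum stress gene (1.47-fold, adjusted p = 0.0419), NLRC5, an activator of MHC class I genes (1.60-fold, adjusted p = 0.0431), and DOK4, an adaptor protein (1.47-fold, adjusted p = 0.0305).

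Outside the cluster the highest log2 fold change was 0.68 (NLRC5), read from the brightest probe. With the mean of all tested probes of a gene, NLRC5 was at 1.89 (adjusted p = 0.00119, limma), so its value depends on the probe. BBS2 and NUP93, coding genes on either side, had values of 0.16 and -0.09, and neither was called. Over T47D-PA5, ENST00000567054 (3.29-fold, adjusted p = 0.0337) and HERPUD1 (1.60-fold, adjusted p = 0.0217) were called, where 3.65% of all genes were called higher. In T47D-PA5 over T47D-VC1 0 of 26 were called. Over T47D-VC1 the call was kept in 3 of the 9 settings that left out an array for DOK4 and in 2 of 9 for ENST00000567054, HERPUD1 and NLRC5, and for all 4 it was lost without T47D-PA6 replicate 2 or 3. Over T47D-PA5 it was kept in 6 for HERPUD1 and in 3 for ENST00000567054. Without slide 1 the 4 genes were called over T47D-VC1, where 16.7% of all genes were called higher, with log2 fold changes of 0.61 (DOK4) to 1.74 (ENST00000567054).

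**Figure D5:**
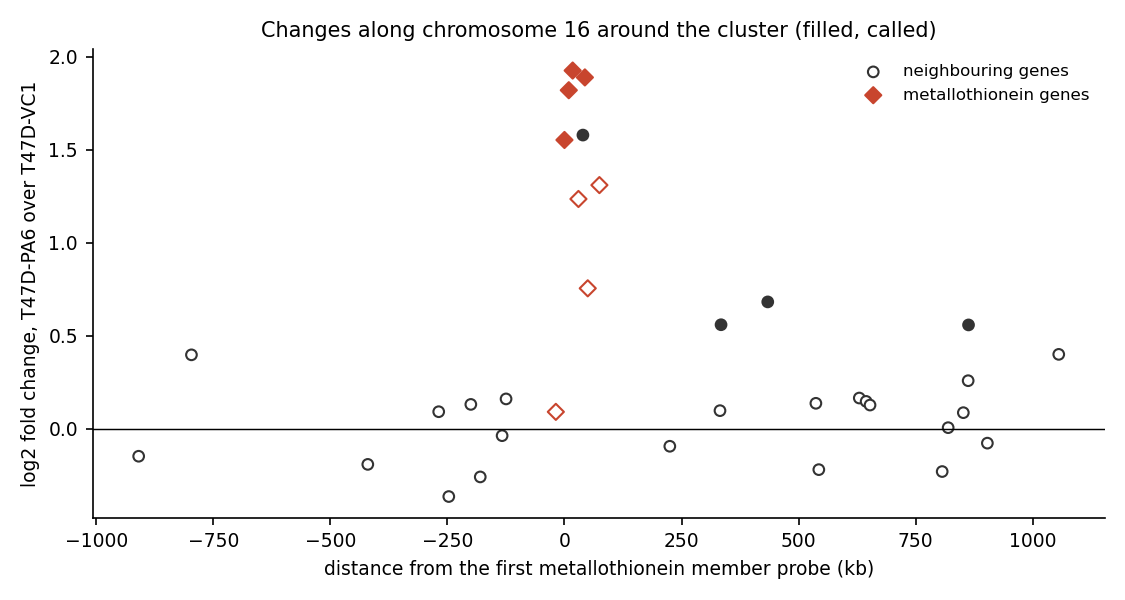
Change between T47D-PA6 and T47D-VC1 (log2 fold change) against the distance of each probe from the MT2A probe, in kb, for metallothionein genes (diamonds) and 26 neighbouring genes (circles), with filled symbols for an adjusted p under 0.05. The metallothionein genes other than MT3 lie between 0.75 and 1.93, and the neighbours outside the cluster, each read from its brightest probe, lie no higher than 0.68.

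The arrays measured RNA from bulk cultures, in which more cells with metallothionein RNA and more RNA per cell cannot be told apart. Nothing in the labels says whether the 3 arrays of a line came from separate cultures, so the p-values measure the spread between these arrays, which may be technical.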

How the data were processed

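Total RNA was labeled with Cy3 and hybridized to SurePrint G3 Human v3 arrays. The authors deposited, for each array, spot intensities that Feature Extraction had background-subtracted (version 10.7.1.1 per the file headers, 9.5.1.1 per the labels), and a table of intensities quantile-normalized in R. Here, from 46 to 117 outlier spots per array were left out, intensities were averaged per probe on the log2 scale and quantile-normalized, and a probe was kept if all 3 arrays of some line put it well above background (26172 probes). Each gene was read from its brightest kept probe. All 9 arrays entered 1 fit with limma 3.58.1 (R 4.3.3), with 6 residual degrees of freedom, a threshold of 0.05 and Benjamini-Hochberg adjustment. The number of arrays limits the precision. The methods' t-test is the unpaired equal-variance test named in the study. The fit was tested on simulated data.

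The members, gene lists and motifs were chosen with earlier results of these data known. The genes named are the 8 members, up to 4 called genes per list and comparison, the 5 genes most like the family, and neighbours within 1 Mb. SLC30A1, HMOX1, MT1HL1, MT3, FKBP5, TSC22D3, BBS2 and NUP93 were added after their values were seen. Alternatives were another normalization, background correction, filter, probe choice, test, prior, block and set of arrays.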

Additional observations from a re-analysis of the deposited data

How the results depend on the processing

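T47D-PA6 was above T47D-VC1 for the 5 tested members in all 22 alternatives with a fitted value (log2 fold changes 0.41 to 2.44), and above T47D-PA5 in all 22 (0.52 to 2.27). The number of members called was less stable, and the cause was not tested. For T47D-PA6 over T47D-VC1, where 2 were called, 0 were called with no filter (6 of 8 at an unadjusted p under 0.05, and 15.3% of all genes), 0 with the methods' t-test (2 of 5, and 22.1% of all genes), 0 with a fit to the 2 compared lines alone (4 of 5, and 24.0% of all genes), 4 by the fold definition and 6 with slide 1 left out. Leaving out 1 array gave 0 to 5. The 6 and the 5 include MT1M, which passed the filter there only through T47D-PA6. For T47D-PA6 over T47D-PA5, where 0 were called, 2 were called with normexp, 2 with the stricter filter, 2 with slide as a block, 2 with an intensity trend, 4 by the fold definition and 6 with slide 1 left out. Of all genes, 882 of 20107 were called higher with normexp, 643 of 18256 with the stricter filter and 748 of 20107 with slide as a block. With the trend 877 of 20107 were, by the fold definition 2.69%, and with slide 1 left out 16.3%. Leaving out 1 array gave 0 to 5, and MT1M is again in the 6 and the 5. For T47D-PA5 over T47D-VC1 the count was 0 in all alternatives.

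Replicate numbers are shared by the lines, and deviations from the line means correlated positively in all 9 pairs of same-numbered arrays (0.0995 to 0.337). Replicate 1 of every line was on slide 1 and replicate 3 on slide 3. No label says that the number marks a batch, and the main fit has no block, so its counts leave any shared replicate effect in the spread. With the replicate block the counts were 4, 0 and 3 for T47D-PA6 over T47D-VC1, T47D-PA5 over T47D-VC1 and T47D-PA6 over T47D-PA5. In the same order, 1217, 382 and 928 of 20107 genes were called higher with this block.

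The sign of T47D-PA5 over T47D-VC1, never called, changed in some settings. With slide 1 left out the log2 fold changes were -0.32 for MT2A, -0.13 for MT1F, -0.22 for MT1E and -0.22 for MT1X. Without T47D-VC1 replicate 1 they were -0.25 for MT2A, -0.24 for MT1F and -0.16 for MT1E, and without T47D-PA5 replicate 1 it was -0.12 for MT1X. MT1A turned positive with the 75th percentile shift (0.0142) and without T47D-VC1 replicate 2 (0.19), T47D-VC1 replicate 3 (0.11) or T47D-PA5 replicate 3 (0.03). Leaving out single arrays, the values ranged from -0.25 to 0.32 for MT2A, -0.24 to 0.35 for MT1F, -0.16 to 0.49 for MT1E, -0.33 to 0.19 for MT1A and -0.12 to 0.41 for MT1X. Of 733 values of other named genes under the alternatives, 0 changed sign, 205 lost a call and 30 gained one. Most of these genes were named because the main fit called them, and the fold definition reuses the values of that fit. A kept sign was therefore likely from the start and says little about stability.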
